A study of Mus musculus with 5 samples.

Results

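The genes examined here encode 4 peptide receptors, *Nmur1*, *Vipr1*, *Vipr2* and *Calcrl*, and 3 receptor activity-modifying proteins (RAMPs), *Ramp1*, *Ramp2* and *Ramp3*. They were taken by symbol from the table of raw counts, 7 of 47729 genes. The set was chosen for neuropeptide signalling to group 2 innate lymphoid cells (ILC2s), lymphocytes that lack antigen receptors and release type 2 cytokines. The RAMPs belong to it as partners of the receptor encoded by *Calcrl*, and not every such pair is a neuropeptide receptor. No adrenergic receptor is among these 7 genes, and 8 adrenergic receptor genes are described beside them. The measurement was polyA RNA-seq of freshly sorted dermal ILC2s (dILC2s), without stimulation, from female C57BL/6 mice aged 8 to 13 weeks. The WT group held 3 pools (5, 6 and 13) of 10 mice each. The *Rag1*-/- group, mice that lack the recombinase RAG1 and therefore mature T and B cells, held 2 pools (2 and 7) of 9 mice each by the study's methods, whereas the labels give 16 mice in all. The methods give a gate of viable CD45+ CD90hi cells without CD2/CD3 signal for dILC2s in flow cytometry and do not state the gate of the sort for RNA-seq. Each library is an average over the sorted cells of a pool. The labels name the cells of the *Rag1*-/- pools as type 3 and those of the WT pools as type 2 innate lymphoid cells, while the methods call all of them dILC2s.

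CALCRL is a G protein-coupled receptor that needs a RAMP to reach the cell surface and to select its ligand. With RAMP1 it forms the receptor for calcitonin gene-related peptide (CGRP), a peptide of sensory nerves, and with RAMP2 or RAMP3 it forms adrenomedullin receptors. VIPR1 and VIPR2 bind vasoactive intestinal peptide and the related peptide PACAP, and NMUR1 binds neuromedin U. In ILC2s of lung and gut, neuromedin U is known to promote cytokine release and CGRP is known to restrain proliferation.

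The WT libraries held 32939428 to 39477243 counts on genes. *Rag1*-/- pool 2 held 8050562 and pool 7 held 38922750, so that 3 counts, the smallest level taken as detectable, equalled 0.373 CPM (counts scaled by the library total) in pool 2 and 0.0760 to 0.0911 CPM elsewhere. For *Rag1* itself (chromosome 2 of GRCm38, 101638282 to 101649501) the WT libraries gave 4, 0 and 5 counts, pool 2 gave 5 and pool 7 gave 48. The log2 difference was 3.53 and did not pass (adjusted p = 0.0866, edgeR's quasi-likelihood test). Transcripts of *Rag1* were thus not lower in the pools labelled *Rag1*-/-. The deleted part of the gene is not given in the sources used here, so that these counts cannot test the label. The genotypes below are therefore those of the labels. Of 20 ILC2 marker genes none was at 0 counts in all libraries, and *Gata3*, the defining transcription factor, had 199 to 319 CPM in WT and 369 to 558 CPM in the libraries labelled *Rag1*-/-. Markers of other cells were present as well. The summed level of 26 keratinocyte genes was 36655 to 52198 CPM in WT and 9422 to 21439 CPM in the libraries labelled *Rag1*-/-, and that of 37 genes shared by all leukocytes was 1436 to 3430 CPM and 9809.9 to 11076.5 CPM.

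*Ramp1* (chromosome 1 of GRCm38, 91179822 to 91225196, plus strand) encodes the subunit that turns CALCRL into the CGRP receptor. Its counts of 459, 511 and 666 in WT pools 5, 6 and 13 equal 11.8, 12.9 and 20.2 CPM. In the pools labelled *Rag1*-/- it had 596 counts (74.0 CPM, pool 2) and 3139 counts (80.6 CPM, pool 7). Both of these pools stood far above every WT pool, and they lay close to each other although their depths differed. The mean of the WT pools was 15.0 ± 4.56 CPM (SD, n = 3), and that of the others, 77.3 ± 4.68 CPM (SD, n = 2), was 5.16-fold higher. The quasi-likelihood test of edgeR over 19011 genes gave a log2 fold change of 2.40 with a standard error of 0.27 (adjusted p = 0.0306), and *Ramp1* ranked at place 15 by p-value among all genes tested. Calls required both an adjusted p-value below 0.05 and a log2 fold change beyond 1 in either direction. *Ramp1* was the only one of the 7 genes called by edgeR, and it was higher, where 5.73% of all genes were called and 3.57% were called higher. With edgeR 0 of the 7 were called lower (2.16% of all genes), and 0 had an unadjusted p-value under 0.05 in that direction. DESeq2 called 2 of them higher, *Ramp1* and *Ramp3* (7.22% of all genes), and 0 lower (7.59%). In pooled cells, a change in the share of a cell type and a change of RNA per cell cannot be told apart. With WT pool 5, 6 or 13 left out, the adjusted p-value of *Ramp1* was 0.0543, 0.0917 and 0.109 (edgeR) and no gene of the whole table passed. Leaving out pool 2 or pool 7 leaves a single library labelled *Rag1*-/-, and the log2 fold change of *Ramp1* was then 2.50 and 2.25. Such a fit cannot show that the call holds. Over the omissions of each of the 5 libraries, its log2 fold change stayed between 2.25 and 2.67.

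*Ramp3* (chromosome 11, 6658521 to 6677475, plus strand) encodes the subunit that, with CALCRL, forms an adrenomedullin receptor. It was the most abundant of the 7 genes in every library, by CPM and by CPM per kb. It had 73.8, 254 and 185 CPM in WT pools 5, 6 and 13 (2862, 10037 and 6081 counts). It had 510 and 836 CPM in pools 2 and 7 labelled *Rag1*-/- (4106 and 32537 counts). The groups did not overlap, but the WT pools themselves were far apart, with pool 5 the lowest. The means were 171 ± 91.0 CPM (SD, n = 3) and 673 ± 230 CPM (SD, n = 2), 3.94-fold higher. The log2 fold change of 2.01 (standard error 0.50) did not pass the threshold (adjusted p = 0.0603, edgeR), whereas it passed with DESeq2 (1.98, adjusted p = 0.00103). The annotation places 101 bases of its exons over the antisense pseudogene *Gm11978*, and reads from these bases cannot be assigned to a strand in this unstranded library type.

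**Figure D1:**
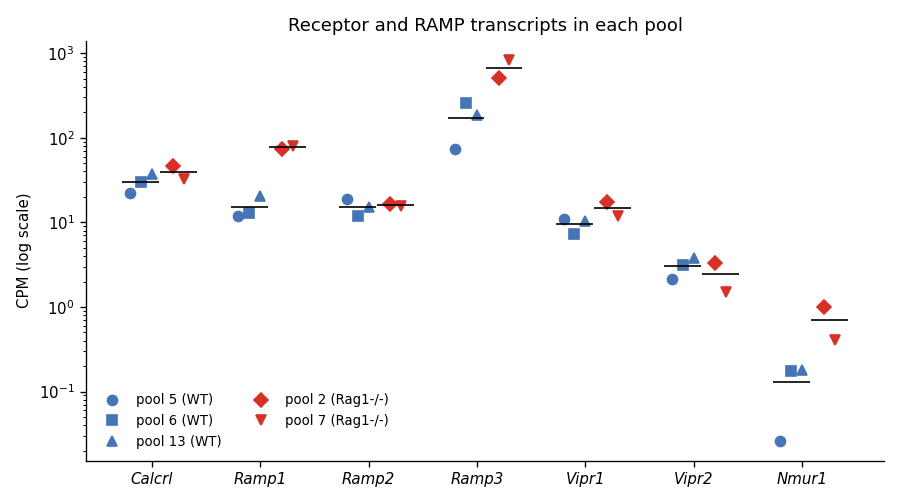
Level of each gene in each pool in CPM, on a log axis, with WT pools in blue, pools labelled *Rag1*-/- in red and a black bar at each group mean. The red points of *Ramp1* (74.0 and 80.6 CPM) and *Ramp3* (510 and 836 CPM) lie above every blue point, and those of *Ramp2* lie among them.

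The stretches of 250 bases before the start of *Ramp1* and *Ramp3* are shown because these genes had the largest differences apart from *Nmur1*, which had few counts. The sequences are those of RefSeq on GRCm38.p6, plus strand, chr1:91179572-91179821 and chr11:6658283-6658532, and capitals mark CG dinucleotides. The start is that of RefSeq. For *Ramp3* it lies downstream of the start given above (6658521), so that the last bases of its stretch fall inside that span.
Ramp1: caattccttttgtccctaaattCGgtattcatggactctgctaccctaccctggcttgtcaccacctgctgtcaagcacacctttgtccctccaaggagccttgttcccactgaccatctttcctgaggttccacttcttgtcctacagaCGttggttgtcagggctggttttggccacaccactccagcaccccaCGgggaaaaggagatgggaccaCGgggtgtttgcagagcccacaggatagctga
Ramp3: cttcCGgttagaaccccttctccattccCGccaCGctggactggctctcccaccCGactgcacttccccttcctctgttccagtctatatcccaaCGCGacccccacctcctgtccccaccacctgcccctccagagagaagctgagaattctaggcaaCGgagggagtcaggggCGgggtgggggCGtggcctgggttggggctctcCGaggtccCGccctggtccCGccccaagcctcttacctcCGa
The *Ramp1* stretch held 4 CG dinucleotides and 54.0% G and C, and that of *Ramp3* held 13 and 65.2%. The median over 32851 RefSeq promoters was 6 CG dinucleotides and 52.4%. The cAMP response element (TGACGTCA, both strands) was in 1.55% of all promoters and its shortened form (TGACG, both strands, part of the longer motif) in 17.8%. Entries were found for 6 of the 7 genes, and neither form was in the *Ramp1* or *Ramp3* stretch. The shortened form was in that of *Vipr1*. The GATA motif (AGATAA, both strands) was in 9.99% of promoters and in none of these.

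*Calcrl* (chromosome 2, 84330626 to 84425411, minus strand), the receptor that RAMPs pair with, had 22.0, 29.8 and 37.3 CPM in WT pools 5, 6 and 13. It had 46.3 and 33.0 CPM in pools 2 and 7 labelled *Rag1*-/-. The groups overlapped, since pool 7 lay between WT pools 6 and 13. The means were 29.7 ± 7.62 CPM (SD, n = 3) and 39.6 ± 9.45 CPM (SD, n = 2), and the log2 fold change of 0.44 (standard error 0.27) did not pass the test (adjusted p = 0.353, edgeR).

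*Ramp2* (chromosome 11, 101246028 to 101259546, plus strand), whose product with CALCRL forms the adrenomedullin receptor best known from endothelium, had 18.9, 11.9 and 15.0 CPM in WT pools 5, 6 and 13. It had 16.5 and 15.6 CPM in pools 2 and 7 labelled *Rag1*-/-, both inside the WT range. The fitted log2 difference of 0.11 (standard error 0.26) did not pass the test (adjusted p = 0.844, edgeR). Exons of *Ramp2* share 1103 bases with *Vps25* on the same strand, so that reads there cannot be assigned to 1 of these genes with certainty. Genes of blood vessels were measurable beside *Calcrl* and *Ramp2*. Of 23 endothelial marker genes tested 0 were called by edgeR (5.73% of all genes), 1 was called lower by DESeq2 (7.59% of all genes), and their median log2 fold change was -0.56. *Pecam1*, an adhesion molecule of endothelium, had 91.9 to 155 CPM in WT and 50.6 and 114 CPM in pools 2 and 7. The part of these cells in the levels of *Calcrl* and *Ramp2* was not tested.

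To compare the subunits with their receptor, the RAMPs were set against *Calcrl* within each library, which removes any common scale. Such a ratio does not remove differences between pools in the share of cell types. Levels between genes are compared here as CPM per kb of the transcript length given in the deposited table. The ratio of *Ramp1* to *Calcrl* was 3.08, 2.49 and 3.11 in WT pools 5, 6 and 13 and 9.16 and 14.0 in pools 2 and 7 labelled *Rag1*-/-. The mean ratio was thus 2.89 ± 0.352 (SD, n = 3) against 11.6 ± 3.44 (SD, n = 2), without overlap (exact permutation test, two-sided, p = 0.1, the smallest value that 10 splits of 5 libraries allow). The ratio of *Ramp1* to *Ramp2* went the same way. It was 0.865, 1.50 and 1.86 in WT and 6.20 and 7.14 in the pools labelled *Rag1*-/- (exact permutation test, two-sided, p = 0.1). The ratio of *Ramp3* to *Calcrl* was 13.3, 33.7 and 19.6 against 43.6 and 100 (exact permutation test, two-sided, p = 0.2). That of *Ramp2* to *Calcrl* was 3.56, 1.65 and 1.67 against 1.48 and 1.96, with overlap (exact permutation test, two-sided, p = 0.8). The ratio of *Ramp3* to *Ramp1* was 4.31 to 13.6 in WT and 4.76 and 7.16 in the pools labelled *Rag1*-/-, with overlap (exact permutation test, two-sided, p = 0.9). These 7 ratios and 3 shares of the RAMPs formed 1 family of 10 relations, in which the smallest p-value after Benjamini-Hochberg adjustment was 0.333 (exact permutation tests).

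**Figure D2:**
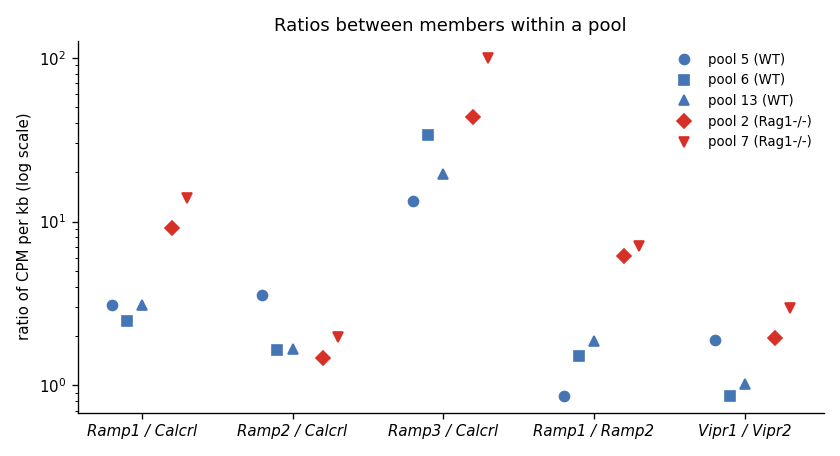
Ratios between pairs of the genes in each pool, as CPM per kb over CPM per kb, on a log axis, with WT pools in blue and pools labelled *Rag1*-/- in red. *Ramp1* over *Calcrl* lies at 2.49 to 3.11 in WT and at 9.16 and 14.0 in the others, while *Ramp2* over *Calcrl* overlaps.

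Of the 3 RAMPs, *Ramp3* made 66.6% to 89.1% of the summed level per kb in WT and 80.4% and 86.3% in the pools labelled *Rag1*-/-. *Ramp2* made 17.9%, 4.37% and 6.85% in WT pools 5, 6 and 13 and 2.73% and 1.69% in pools 2 and 7 (exact permutation test, two-sided, p = 0.2). *Ramp1* made 6.56% to 15.5% in WT and 16.9% and 12.0%, with overlap. These shares depend on the length used. Over all annotated exons *Ramp2* made 9.08%, 1.88% and 3.14% in WT and 1.25% and 0.743% in pools 2 and 7, *Ramp1* 2.23% to 6.20% in WT and 6.14% and 4.19%, and *Ramp3* 84.7% to 95.9% in WT and 92.6% and 95.1%. By transcript length the order of the WT mean levels per kb was *Ramp3* (139 ± 73.8), *Ramp1* (17.6 ± 5.35), *Ramp2* (12.97 ± 2.98), *Calcrl* (6.08 ± 1.56), *Vipr1* (1.95 ± 0.398), *Vipr2* (1.67 ± 0.466) and *Nmur1* (0.0971 ± 0.0673 CPM per kb, SD, n = 3 for each). *Ramp1* and *Ramp2*, and *Vipr1* and *Vipr2*, do not differ beyond their spread in this order. The place of *Ramp1*, *Ramp2* and *Calcrl* depends on the length used, since over all annotated exons (3022, 3301 and 4882 bases) their WT means were 4.96, 4.63 and 6.08 CPM per kb. *Ramp3* was highest and *Nmur1* lowest with both lengths.

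*Vipr1* (chromosome 9, 121642716 to 121672954, plus strand), a receptor of vasoactive intestinal peptide coupled to cAMP, had 10.9, 7.32 and 10.4 CPM in WT pools 5, 6 and 13. It had 17.5 and 11.9 CPM in pools 2 and 7 labelled *Rag1*-/-. Both stood above every WT pool, pool 7 by little. The log2 fold change of 0.64 (standard error 0.29) did not pass the test (adjusted p = 0.212, edgeR). *Vipr2* (chromosome 12, 116077726 to 116146261, plus strand) encodes the other receptor of this peptide and had 2.14, 3.14 and 3.83 CPM in WT and 3.35 and 1.49 CPM in pools 2 and 7. The groups overlapped, with pool 7 the lowest of the 5 libraries. The difference on the log2 scale was -0.35 (standard error 0.49, adjusted p = 0.709, edgeR), and it was 0.086 without pool 7. The ratio of *Vipr1* to *Vipr2* per kb was 1.90, 0.866 and 1.01 in WT and 1.94 and 2.96 in the pools labelled *Rag1*-/- (exact permutation test, two-sided, p = 0.2).

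*Nmur1* (chromosome 1, 86386242 to 86388162, minus strand), the receptor of neuromedin U, was close to the limit of detection. WT pools 5, 6 and 13 gave 1, 7 and 6 counts, pool 2 gave 8 and pool 7 gave 16. These equal 0.0258, 0.177 and 0.182 CPM in WT and 0.994 and 0.411 CPM in the others, all under 1 CPM. The groups did not overlap, but exact 95% Poisson intervals, which cover counting error only, were 0.0713 to 0.365 CPM in WT pool 6 and 0.235 to 0.668 CPM in pool 7. The log2 fold change of 2.35 (standard error 0.95) did not pass (adjusted p = 0.172, edgeR), and DESeq2 gave it no adjusted p-value. The gene as listed in the deposited table ends at base 86388162, whereas the model of GENCODE M21 extends to 86426228, and whether reads on the upstream exons were counted was not tested.

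Taking the 7 genes as a list, 4 (*Nmur1*, *Vipr1*, *Ramp1* and *Ramp3*) had both pools labelled *Rag1*-/- above every WT pool, where 21.9% of all genes did, and 0 had both below (24% of all genes). Their median log2 fold change was 0.64, against 0.020 over all genes tested. An unadjusted p-value under 0.05 was found for 3 of them (*Ramp1*, *Ramp3* and *Nmur1*, edgeR) and for 26.4% of all genes. All 7 passed the filter on low counts. *Nmur1* passed it only through the pools labelled *Rag1*-/- (0.994 and 0.411 CPM, against 0.0258 to 0.182 CPM in WT). Its place in the counts of genes above is therefore no independent support.

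Several of these signs changed with the scaling of the libraries. All 37 leukocyte genes tested had both pools labelled *Rag1*-/- above every WT pool, where 21.9% of all genes did. Their median log2 fold change was 1.98, and 25 were called higher by edgeR (3.57% of all genes) and 35 by DESeq2 (7.22%). With the libraries scaled on the summed counts of these genes, the median of all genes moved to -2.16. *Ramp1* was then at 0.32 (adjusted p = 0.677) and *Ramp3* at 0.13 (adjusted p = 0.867, edgeR). *Calcrl* (-1.63, adjusted p = 0.0422), *Ramp2* (-2.18, adjusted p = 0.0130) and *Vipr2* (-2.39, adjusted p = 0.0198, edgeR) were called lower, where 68.5% of all genes were, and 0 of the 7 were called higher (0.0842% of all genes). Relative to the median of all genes, *Ramp1* lay at 2.38 with the usual TMM scaling and at 2.47 with the leukocyte scaling, *Ramp3* at 1.99 and 2.29, and *Calcrl* at 0.42 and 0.53. A change of scaling shifts most genes by a similar amount, so that this distance cannot show whether a difference holds.

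**Figure D3:**
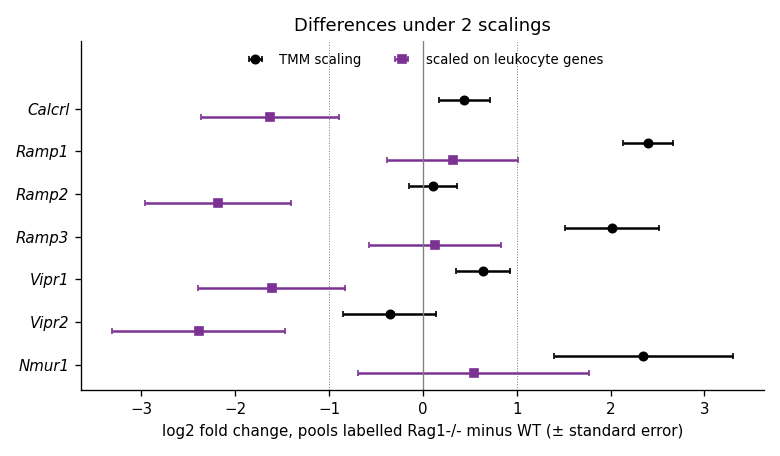
Log2 fold change of each gene, pools labelled *Rag1*-/- minus WT, with standard error, from edgeR with TMM scaling (black circles) and with scaling on the leukocyte genes (purple squares). *Ramp1* moves from 2.40 to 0.32 and *Ramp2* from 0.11 to -2.18, while the order of the genes stays the same except for *Nmur1* and *Ramp1*, which change places.

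Divided by the summed counts of the leukocyte genes, the level of *Ramp1* was 1.24 times and that of *Ramp3* 1.09 times that of WT, both with overlap. *Calcrl*, *Ramp2*, *Vipr1* and *Vipr2* were lower than in every WT pool on this scale, at 0.323, 0.219, 0.327 and 0.193 times the WT mean. The share of all genes that did so on this scale was not computed. With the libraries scaled on the same leukocyte genes, the median log2 fold change of all genes was -2.16 and 68.5% were called lower (edgeR). A lower level on this scale therefore does not set these genes apart from most others. Divided by the endothelial genes, *Ramp1* was 7.16 times and *Ramp3* 4.83 times the WT mean, without overlap. Divided by the 20 ILC2 markers, *Ramp1* was 1.81 times the WT mean without overlap, and *Ramp3* 1.58 times with overlap. *Calcrl* and *Ramp2* were 0.464 and 0.335 times the WT mean on that scale, without overlap. For the endothelial and ILC2 marker scales, too, no share over all genes was computed.

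**Figure D4:**
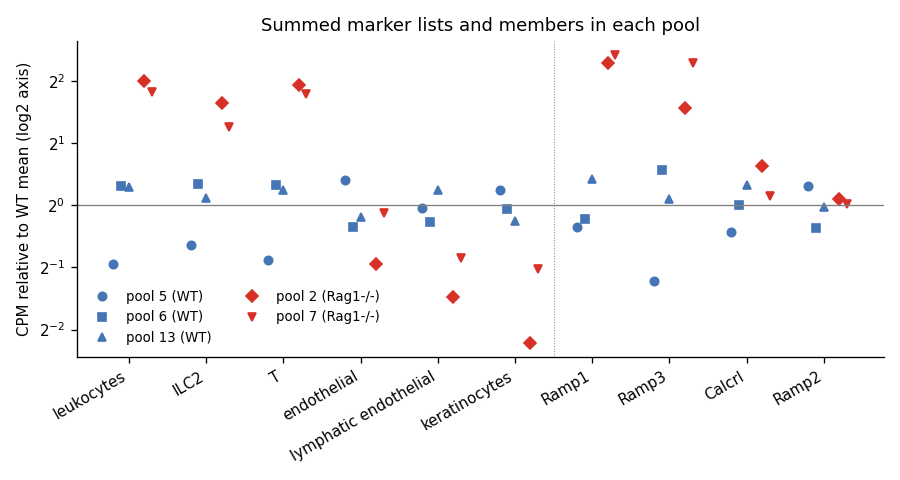
Summed level of marker lists (left of the dotted line) and level of 4 of the genes (right) in each pool, relative to the WT mean, on a log2 axis, with WT pools in blue and pools labelled *Rag1*-/- in red. The leukocyte list (4.02 and 3.56) and *Ramp1* (4.94 and 5.38) lie above WT in pools 2 and 7, and keratinocyte genes (0.216 and 0.491) lie below.

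The other marker lists moved with the groups as follows, and their part in the levels of the receptors was not tested. Of all genes tested, 51.4% were on the positive side and 21.9% had both pools labelled *Rag1*-/- above every WT pool. Called higher were 3.57% by edgeR and 7.22% by DESeq2, and called lower 2.16% and 7.59%. Of 20 ILC2 markers 6 were called higher, among them *Thy1*, which encodes CD90 (1.89, adjusted p = 0.0306), and *Il13*, a type 2 cytokine (2.36, adjusted p = 0.0309, edgeR). Of 10 T cell genes tested 10 were on the positive side, 7 had both pools labelled *Rag1*-/- above every WT pool and 4 were called higher, with a summed level of 69.5 to 161 CPM in WT and 444 and 491 CPM in pools 7 and 2 labelled *Rag1*-/-. Of 8 genes of ILC3s 4 were called higher and 1 lower, and *Il17f*, a cytokine of these cells, had 0.516 to 1.01 CPM in WT and 39.4 and 14.9 CPM in pools 2 and 7. The 2 most abundant genes of this list went the other way, while the other 6 were on the positive side. *Ahr*, the gene called lower, had 140 to 172 CPM in WT and 69.7 and 68.0 CPM in pools 2 and 7 (-1.18, adjusted p = 0.0306, edgeR). *Il1r1* was at -0.31 (adjusted p = 0.403, edgeR), with overlap. Of 8 genes of NK cells and ILC1s 2 were called higher. Of 26 keratinocyte genes 8 were called lower, and of 6 lymphatic endothelial genes 1, *Mmrn1* (-1.25, adjusted p = 0.0325, edgeR). DESeq2 called more genes in these lists, 15 ILC2 markers, 5 T cell genes and 5 genes of NK cells and ILC1s higher, 5 ILC3 genes higher and 1 lower, and 22 keratinocyte and 4 lymphatic endothelial genes lower. With edgeR 0 genes were called among 12 of fibroblasts, 9 of pericytes and smooth muscle, 10 of mast cells, 12 of macrophages and Langerhans cells, 7 of Schwann cells and neurons and 5 of melanocytes. Of these 6 lists, DESeq2 called 2 lower among pericytes and smooth muscle, and 1 higher and 1 lower among mast cells.

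The genes whose pattern over the 5 libraries was most like that of each receptor were found by the root mean square distance of centred log2 CPM. For *Ramp1* these were *Cd3g*, a chain of the T cell receptor complex (distance 0.117), *Actn2* (0.137) and *Bcl2a1c* (0.188). For *Ramp3* they were *Nxnl2* (0.136), *S1pr4* (0.137) and *Lpxn* (0.145), and for *Nmur1* *Fam19a3* (0.101), *Foxj1* (0.114) and *Rasgrp4* (0.131). *Cd3g* had 11.1 to 19.0 CPM in WT and 68.4 and 64.1 CPM in pools 2 and 7, so that it too was higher in both pools labelled *Rag1*-/- than in every WT pool. For *Calcrl* they were *Zfp933* (0.0515), *Cnot6l* (0.0725) and *Lpin1* (0.0772), and for *Ramp2* *Racgap1* (0.0328), *Stmn1* (0.0422) and *Pamr1* (0.0445). For *Vipr1* they were *Sdk1* (0.0600), *B3gnt9* (0.0643) and *Katnal1* (0.0837), and for *Vipr2* *Snord73a* (0.0251), *Cd46* (0.0567) and *mt-Nd6* (0.105).

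Transcripts of the ligands were examined in the same libraries. Of 9 ligand genes 3 passed the filter on low counts and 0 were called by edgeR, while DESeq2 called 1 higher. *Calca*, which encodes CGRP and calcitonin, had 11.0, 43.0 and 26.7 CPM in WT pools 5, 6 and 13 and 100 and 85.2 CPM in pools 2 and 7 labelled *Rag1*-/-. Both lay above every WT pool, and the log2 fold change of 1.81 (standard error 0.49) missed the threshold with edgeR (adjusted p = 0.0725) and passed with DESeq2 (adjusted p = 0.00408). *Calcb*, the second CGRP gene, had 38.5, 17.7 and 13.7 CPM in WT and 0.745 and 11.4 CPM in pools 2 and 7 (log2 fold change -1.78, adjusted p = 0.262, edgeR). These paralogs are similar in sequence, so that the split of short reads between them is uncertain. *Adm*, which encodes adrenomedullin, had 37.8, 36.9 and 31.1 CPM in WT and 14.5 and 21.9 CPM in the pools labelled *Rag1*-/- (log2 fold change -0.90, adjusted p = 0.0815, edgeR). The WT libraries gave 3, 1 and 7 counts for *Nmu* and 0, 1 and 2 for *Vip*, and both had 0 in pools 2 and 7, where the depth allows up to 0.373 and 0.0771 CPM. *Nms* and *Iapp* were at 0 in every library.

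Related receptors were mostly low. Of 12 such genes 6 were tested and 0 called by edgeR and by DESeq2. *Ackr3*, a scavenger receptor that also takes up adrenomedullin, had 41.4 to 56.9 CPM in WT and 36.9 and 42.9 CPM in pools 2 and 7. *Crcp*, a component of the CGRP receptor complex, had 18.7 to 21.1 CPM and 18.3 and 26.2 CPM, and *Pth1r*, the parathyroid hormone receptor, 7.80 to 12.0 CPM and 11.6 and 15.1 CPM. *Calcr*, the calcitonin receptor, had at most 4 counts in any library. Of 8 adrenergic receptor genes all were tested and 0 were called by edgeR and by DESeq2, with a median log2 fold change of 0.32. *Adra2a* was the highest at 4.58 to 7.40 CPM in WT and 4.35 and 6.89 CPM in pools 2 and 7. *Adrb1* had 0.516, 1.62 and 0.729 CPM in WT and 2.36 and 2.24 CPM in the others, without overlap (log2 fold change 1.29, adjusted p = 0.220, edgeR). *Adra1b* had 0.633 to 0.954 CPM and 2.11 and 1.00 CPM (0.98, adjusted p = 0.307, edgeR). *Adra1a* (-1.39, adjusted p = 0.400) and *Adrb3* (-1.24, adjusted p = 0.246, edgeR for each) went the other way, with both pools below every WT pool. Of the 8 genes, 2 thus had both pools labelled *Rag1*-/- above every WT pool and 2 below, where 21.9% and 24% of all genes did. Of 32 other receptor genes for transmitters and neuropeptides 16 were tested, 0 were called by edgeR and 1 by DESeq2. The highest were *Tacr1*, the substance P receptor, with 4.91 to 11.6 CPM in WT and 0.870 and 4.44 CPM in pools 2 and 7, *Bdkrb1* with 2.76 to 4.95 CPM and 5.84 and 4.62 CPM, and *Chrna2* with 0.971 to 1.67 CPM and 9.44 and 1.64 CPM.

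Downstream of these receptors lie G proteins, adenylyl cyclases and phosphodiesterases that set cAMP, protein kinase A, and the kinases and arrestins that switch receptors off. Of 46 such genes 45 were tested, 5 were called higher by edgeR (11.1%, where 3.57% of all genes were), 2 lower (2.16% of all genes) and 38 were not called, with a median log2 fold change of 0.19. DESeq2 called 11 higher and 4 lower (7.22% and 7.59% of all genes). *Pde4a*, which degrades cAMP, had 30.0, 60.2 and 35.0 CPM in WT pools 5, 6 and 13 and 274 and 110 CPM in pools 2 and 7 (2.21, adjusted p = 0.0368, edgeR). *Prkar1a*, a regulatory subunit of protein kinase A, rose by 1.32 (adjusted p = 0.0360), *Grk6*, a receptor kinase, by 1.08 (adjusted p = 0.0352) and *Gnai2*, an inhibitory G protein, by 1.07 (adjusted p = 0.0360, edgeR for each). The fifth was *Arrb2*, an arrestin (1.64, adjusted p = 0.0438, edgeR), which was named after its values were seen. *Gnai1*, another inhibitory G protein, had 97.2 to 104 CPM in WT and 24.8 and 35.9 CPM in pools 2 and 7 (-1.67, adjusted p = 0.0306, edgeR). *Rapgef4*, a cAMP-activated exchange factor, had 14.8 to 17.8 CPM and 3.48 and 5.88 CPM (-1.73, adjusted p = 0.0336, edgeR). *Pde4b*, the most abundant phosphodiesterase of the list, had 416 to 499.6 CPM in WT and 467 and 415 CPM in the others (0.0051, adjusted p = 0.993, edgeR). Scaled on the leukocyte genes, 0 of the 45 were called higher and 27 lower by edgeR, where 0.0842% and 68.5% of all genes were.

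**Figure D5:**
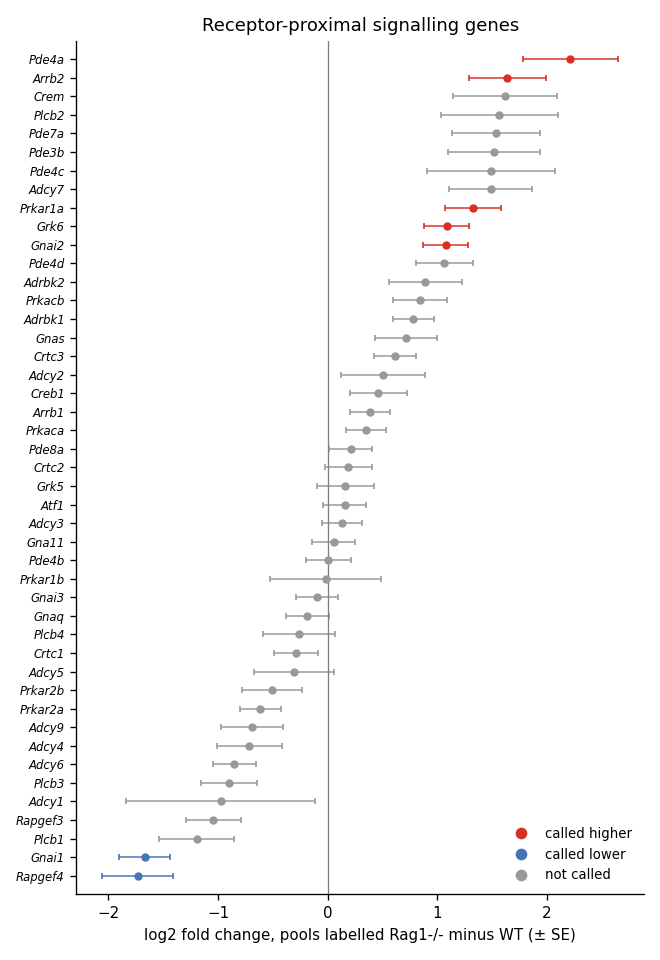
Log2 fold change, pools labelled *Rag1*-/- minus WT, with standard error, for 45 genes acting next to the receptors, sorted by value (edgeR, TMM scaling). The 5 called higher (red) lie between 1.07 and 2.21, the 2 called lower (blue) at -1.67 and -1.73, and the rest (grey) were not called.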

How the data were processed

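Single-end reads were aligned by the authors with STAR 2.5 (GRCm38) and assigned to genes with featureCounts 1.5.0-p1, and the deposited values are raw counts per gene, 1 library per pool of mice. The methods and the deposited design text name different annotation releases. A normalized table was also deposited and not used here. CPM were computed from the deposited counts and library totals, and CPM per kb with the transcript length in the same table. All 5 libraries entered edgeR's quasi-likelihood test (version 4.0.16, R 4.3.3) with genotype as the only term, after filterByExpr and with TMM scaling, and p-values were adjusted by Benjamini-Hochberg over 19011 genes. The fit was first tried on simulated data with known changes. DESeq2 1.42.0, other scalings and filters, thinning and leaving out each library were alternatives. Calls required an adjusted p-value below 0.05 and a log2 fold change beyond 1 in either direction. Ratios were tested with exact permutation tests. The pools are separate samples by the methods.

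The 7 genes and all lists were chosen with earlier results of these data known. Named are the 7 genes, *Rag1*, from each pathway list up to 6 called genes and the 3 most abundant, from each cell type list called genes (up to 4 by p-value) and the 2 most abundant, of which some are given, and the 3 genes of most like pattern per receptor. *Gata3*, *Calcr*, *Nmu*, *Vip*, *Nms*, *Iapp*, *Adra1a*, *Adrb3* and *Arrb2* were added after their values were seen. Promoter sequences are from RefSeq (GRCm38.p6).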

Additional observations from a re-analysis of the deposited data

How the results depend on the processing

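No paired analysis was possible because the groups share no replicate numbers (WT 5, 6 and 13, *Rag1*-/- 2 and 7). Scaling on the leukocyte genes gave 16 genes higher and 13017 lower, 0 of the receptor and RAMP genes higher and 3 lower, and log2 fold changes of -1.61 (*Vipr1*), -1.63 (*Calcrl*), -2.18 (*Ramp2*), -2.39 (*Vipr2*) and 0.32 (*Ramp1*), since this scaling moved the median of all genes from 0.020 to -2.16. Without the filter on low counts 1157 genes were called higher and 1488 lower of 29909 tested. DESeq2 called 1197 and 1257 of 16571, and the main fit 679 and 411 of 19011. With at least 10 counts in every library 856 genes were higher and 641 lower of 14121. Libraries thinned to the shallowest gave 785 higher and 521 lower of 14892. In each of these settings but the main fit, 2 of the 7 genes were called higher, since *Ramp3* then passed (1.96 without the filter, 1.97 with at least 10 counts, 1.98 with DESeq2 and 2.03 thinned). *Nmur1* was not tested with at least 10 counts or thinned. With each library left out in turn, genes higher ranged from 0 to 814, genes lower from 0 to 1595 and receptor and RAMP genes called higher from 0 to 1. No gene passed without WT pool 5, 6 or 13 or *Rag1*-/- pool 2, where 3521 to 5200 genes had an unadjusted p-value under 0.05 (edgeR). Over the omissions of each of the 5 libraries, the log2 fold change ranged from 2.25 to 2.67 for *Ramp1* and from 1.52 to 2.43 for *Ramp3*. Both lower ends came without *Rag1*-/- pool 7. It ranged from -0.95 to 0.086 for *Vipr2* (0.086 without *Rag1*-/- pool 7) and from -0.042 to 0.28 for *Ramp2* (-0.042 without WT pool 6). RLE scaling, library size alone and robust dispersion changed no call of the 7 genes. Where no construction is named, the cause was not tested. The depth of 8050562 counts in *Rag1*-/- pool 2 puts its smallest detectable level at 0.373 CPM.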
